A study of Mus musculus with 12 samples.

Results

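This account follows 31 genes of cholesterol synthesis, uptake and export through RNA sequencing of rib chondrocytes (cartilage cells) from mice in which enzymes of energy metabolism had been deleted. The genes were chosen by symbol, and all 31 were found among the 17922 genes of the deposited table. The cells came from mice of a mixed, mainly C57BL/6 strain and fall into 4 groups of 3 samples. LDH knockouts, taken at postnatal day 5 (P5), carried Col2-Cre with Ldha(fl/fl) and Ldhb+/-, and LDH controls were their littermates. Acly knockouts, taken at embryonic day E18.5, carried Col2-Cre with Acly(fl/fl), and Acly controls were theirs. For the controls the labels give the set and the word control, with no alleles. Col2-Cre is a recombinase driven by the type II collagen promoter, so the deletion is aimed at chondrocytes and other cells in a sample may keep the intact gene. Cells were freed with collagenase and cultured until the following day before RNA was taken. Nothing in the labels says that the samples of a group came from separate animals. In LDH controls and both Acly groups the RNA of Y-linked genes, given below, differed between samples, so not all samples of these groups came from the same animal. The p-values measure the spread between the samples of a group, which may still be technical in part or, in LDH knockouts, in whole.

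Cells make cholesterol from acetyl-CoA. Mevalonate enzymes build isoprenoid units from it, and a second series of enzymes joins them to squalene, closes the sterol ring and trims it to cholesterol. ATP citrate lyase, the product of Acly, supplies acetyl-CoA to the cytoplasm, and lactate dehydrogenase interconverts pyruvate and lactate. When membrane cholesterol is low, SCAP escorts the transcription factor SREBP2 (Srebf2) out of the endoplasmic reticulum, where INSIG proteins otherwise hold it, and synthesis genes are switched on. When oxysterols are abundant, the nuclear receptors LXR-alpha and LXR-beta (Nr1h3 and Nr1h2) switch on export genes such as Abca1, Abcg1 and Apoe. Inborn defects of several of the sterol enzymes cause skeletal malformations.

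Promoters of SREBP2 targets often pair a sterol regulatory element with a CCAAT box, the site of the factor NF-Y. RefSeq promoter windows of the mouse assembly GRCm38.p6 were found for 25 of the 31 genes, and the 250 bases before the start of transcription were searched on both strands for TCACNCCAC, a form of the sterol regulatory element, and for CCAAT. The patterns were counted separately, so a base can belong to a match of both. CCAAT stood in the windows of 20 of the 25 genes (80%), against 37.5% of 27025 genes with a window and 33.8% of all 32851 windows. TCACNCCAC stood in 1 of the 25 (4%), against 1.22% of genes and 1.05% of windows. These backgrounds hold genes whether or not they are expressed in these cells, while all 31 genes were expressed, so the sets are not alike. For 31 of the 34 windows of the 25 genes, the bases after the start were found near the beginning of a transcript of the gene. A match is a description of the letters and not a bound site. No window was found for Fdps, Fdft1, Sqle, Stard4, Npc1 and Abcg1. The first 4 windows below belong to the genes with the lowest p in either knockout comparison among those whose window held a match, which leaves out Npc1 and, with no match, Nr1h3. They are Soat1 (chr1:156474329-156474578, minus strand), Mvk (chr5:114444019-114444268, plus strand), Msmo1 (chr8:64733579-64733828, minus strand) and Idi1 (chr13:8885356-8885605, plus strand). The window of Hmgcs1 (chr13:119690101-119690350, plus strand) was added after its values were seen because it held the TCACNCCAC match, which begins 137 bases before the start. All are the gene's strand, 5′ to 3′, end at the base before the transcription start, and carry matches in capitals, where ATTGG is CCAAT on the other strand.
Soat1: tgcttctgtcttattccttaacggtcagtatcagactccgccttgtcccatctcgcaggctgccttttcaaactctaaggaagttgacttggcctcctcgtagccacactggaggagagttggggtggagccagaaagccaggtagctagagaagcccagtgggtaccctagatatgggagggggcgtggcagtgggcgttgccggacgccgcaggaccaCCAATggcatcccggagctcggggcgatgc
Mvk: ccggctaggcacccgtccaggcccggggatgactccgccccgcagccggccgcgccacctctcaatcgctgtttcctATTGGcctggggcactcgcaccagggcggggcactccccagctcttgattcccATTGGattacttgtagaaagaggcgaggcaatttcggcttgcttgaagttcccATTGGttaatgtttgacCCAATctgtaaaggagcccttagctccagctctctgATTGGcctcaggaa
Msmo1: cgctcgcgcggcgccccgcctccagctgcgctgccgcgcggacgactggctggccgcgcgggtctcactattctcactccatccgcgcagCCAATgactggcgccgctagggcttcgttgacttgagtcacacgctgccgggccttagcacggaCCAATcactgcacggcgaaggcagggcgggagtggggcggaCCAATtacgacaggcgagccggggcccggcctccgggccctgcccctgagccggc
Idi1: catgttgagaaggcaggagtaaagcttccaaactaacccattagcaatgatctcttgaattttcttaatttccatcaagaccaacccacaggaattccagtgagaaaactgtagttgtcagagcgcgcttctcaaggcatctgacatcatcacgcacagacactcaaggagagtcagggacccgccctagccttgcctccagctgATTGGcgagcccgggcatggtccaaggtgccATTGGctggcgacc
Hmgcs1: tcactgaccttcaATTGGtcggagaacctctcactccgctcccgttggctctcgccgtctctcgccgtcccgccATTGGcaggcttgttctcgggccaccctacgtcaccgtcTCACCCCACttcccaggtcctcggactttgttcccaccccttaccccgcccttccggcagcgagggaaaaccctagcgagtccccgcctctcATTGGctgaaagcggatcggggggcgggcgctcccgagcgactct
Mvk carried 5 CCAAT matches, Msmo1 and Hmgcs1 3 each, Idi1 2 and Soat1 1.

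Each sample held 26362407 to 28154143 expected counts, and 3 counts, the limit that a count of 0 allows, correspond to 0.107 to 0.114 CPM (counts per 1000000 counts). Values below are CPM after TMM scaling within the 6 samples of a comparison unless TPM is named. Ldha stood at 10.3% of its control level in LDH knockouts (86.7 ± 6.64 against 845 ± 51.4 CPM, SD, n = 3 each) and Acly at 37.6% in Acly knockouts (74.1 ± 18.9 against 197 ± 4.81 CPM, SD, n = 3 each). Both passed edgeR's quasi-likelihood test with Benjamini-Hochberg adjustment (adjusted p = 3.26e-07 and 0.0313), and the exact permutation p of each was 0.1, the smallest that 3 against 3 samples can give. The call for Acly was lost in 5 of the 6 fits without 1 of its samples, all but the fit without knockout 2, with log2 fold changes of -1.54 to -1.21. Ldhb stood at 129% of control in LDH knockouts, a difference that did not pass (adjusted p = 0.115); the position of the deleted part of these genes relative to the counted reads is unknown here. Chondrocyte markers were abundant in all 12 samples, with a summed level of at least 9244 CPM over 12 genes. Acly knockout 2 stood apart: its counts differed from those of the other Acly knockouts by a chi-square per degree of freedom of 55.0 and 40.0, against 16.6 between the other two. Y-linked genes summed to at least 92.95 CPM in LDH controls 1 and 2 and to at most 0.590 CPM in LDH control 3 and all LDH knockouts. Among Acly samples, knockouts 2 and 3 and control 2 had 74.3 to 121 CPM of that signal, and the other 3 at most 2.83 CPM.

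All 31 genes were expressed above the filter on low counts in both sets. In the authors' TPM values, which are scaled by transcript length and so allow genes to be compared, Npc1 led in LDH controls at 164 ± 12.7 TPM (SD, n = 3). It was followed by Nr1h2 at 143 ± 11.5, Npc2 at 106 ± 12.1, Msmo1 at 102 ± 14.7, Scap at 69.4 ± 2.49 and Fdps at 62.5 ± 3.85 TPM. The samples' ranges overlapped between Npc1 and Nr1h2 and between Npc2 and Msmo1. At the other end stood Abcg1 at 0.980 ± 0.348, Tm7sf2 at 1.93 ± 0.402, Abca1 at 2.57 ± 0.817, Stard4 at 2.80 ± 0.333 and Idi1 at 3.12 ± 0.499 TPM. From Tm7sf2 up to Idi1 the ranges of neighbours in this order overlapped. In Acly controls Npc2 led at 218 ± 11.4 TPM, ahead of Nr1h2 at 148 ± 3.22 and Npc1 at 141 ± 8.91 TPM, and Tm7sf2 was lowest at 1.86 ± 0.592 TPM. The most abundant transcripts of the group thus belonged to the lysosomal cholesterol carriers Npc1 and Npc2 and to the LXR-beta gene, and the lowest levels in LDH controls to the exporters Abcg1 and Abca1, the enzymes Tm7sf2 and Idi1 and the carrier Stard4. Among the enzymes, Msmo1, the sterol methyl oxidase, and Fdps, which makes farnesyl diphosphate, were the most abundant in both control groups. Idi1, the isomerase one step before Fdps, was at 3.12 TPM in LDH and 4.11 TPM in Acly controls.

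**Figure D1:**
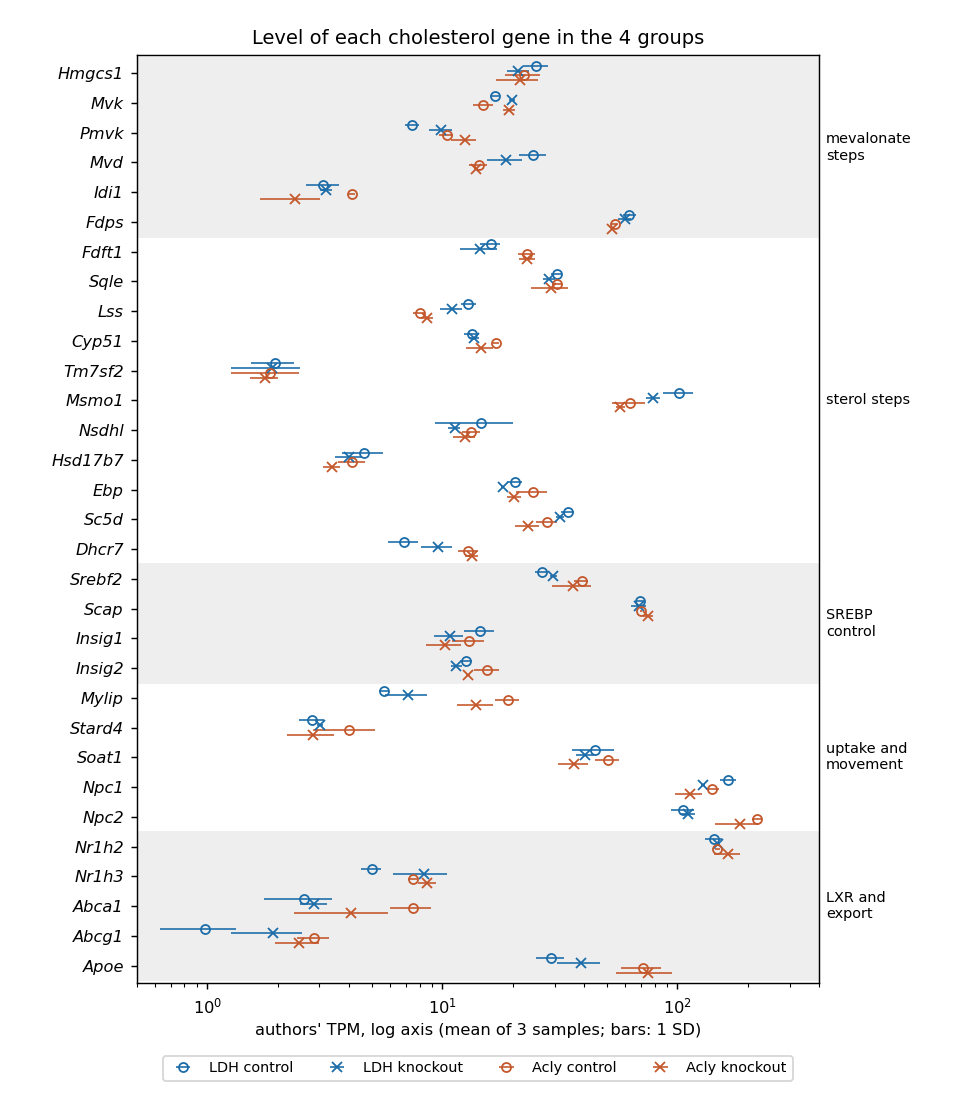
TPM (log axis) of the 31 genes in the 4 groups, as the mean of 3 samples with 1 SD, ordered by role. Levels span from 0.980 TPM for Abcg1 in LDH controls to 218 TPM for Npc2 in Acly controls. The control marks of the LDH (blue) and Acly (orange) sets lie farthest apart for Mylip, Npc2, Abca1, Abcg1 and Apoe. For Abca1 and Abcg1 the knockout bars of the sets overlap.

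The LDH comparison concerns cells with less Ldha RNA, and glycolysis itself was not measured here. None of the 31 genes passed the test in LDH knockouts against controls, where 332 of 13321 genes tested (2.49%) did. At an unadjusted p under 0.05 there were 12 of the 31 (38.7%), 7 higher and 5 lower, against 19.6% of all genes. DESeq2 called 5 of the 31, namely Npc1 and Msmo1 lower and Abcg1, Nr1h3 and Dhcr7 higher, and 6.67% of all genes. The log2 fold changes ran from -0.40 to 0.996 with a median of -0.02, against 0.01 over all genes tested, and 15 were above 0. Knockout and control samples did not overlap for 8 genes that were higher (25.8%, against 11.9% of all genes) and 7 that were lower (22.6%, against 12.5%). Without LDH knockout 3, edgeR called 4 of the 31 (Nr1h3, Abcg1, Dhcr7 and Insig1) and 1068 of 13509 genes (7.91%). In the 4 samples without Y-linked signal, where control 3 is alone and is assumed to vary like the knockouts, it called none of the 31 and 15 of 13782 genes (0.109%).

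Of the 6 mevalonate genes, 3 had a log2 fold change above 0 in LDH knockouts and 3 below. Mvk, which phosphorylates mevalonate, was at 13.8, 14.1 and 16.1 CPM in controls 1 to 3 and 18.3, 17.9 and 16.9 CPM in knockouts 1 to 3. Pmvk, the kinase of the next step, was at 4.60, 3.95 and 4.73 CPM in controls and 6.61, 6.11 and 5.19 CPM in knockouts. Every knockout thus lay above every control for both kinases, at log2 fold changes of 0.27 ± 0.11 and 0.43 ± 0.16 (SE), which did not pass (adjusted p = 0.206 and 0.181 by edgeR). Mvd, the decarboxylase that follows them, was at 21.8, 23.7 and 19.9 CPM in controls and 18.8, 14.0 and 18.1 CPM in knockouts. Its order was the opposite one, all knockouts below all controls, with a log2 fold change of -0.36 ± 0.13 (SE, adjusted p = 0.170). With the Y-linked signal as a covariate the log2 fold changes of Mvk, Pmvk and Mvd were 0.06, 0.26 and -0.15. Between the samples without that signal, where control 3 is the only control, they were 0.14, 0.34 and -0.23. Hmgcs1, which makes HMG-CoA, was at 85.6% of control and its groups overlapped by a small margin (36.2 to 42.6 CPM against 42.6 to 51.3 CPM). Idi1 and Fdps stood at 105% and 97.4% of control and overlapped.

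Of the 11 sterol-step genes, 9 were below 0 on the log2 scale in LDH knockouts, with a median of -0.12, and none passed. Msmo1 was at 88.0, 106 and 89.0 CPM in controls and 69.2, 78.8 and 76.4 CPM in knockouts. It was 79.3% of control with no overlap, at a log2 fold change of -0.34 ± 0.09 (SE, adjusted p = 0.0946 by edgeR). Lss, the cyclase that forms lanosterol, was at 34.6, 37.0 and 37.3 CPM in controls and 31.1, 28.2 and 31.5 CPM in knockouts. Those groups were also separate, at a log2 fold change of -0.26 ± 0.08 (SE, adjusted p = 0.125). Ebp, a sterol isomerase, and Sc5d, a sterol desaturase, had all knockouts below all controls by less, at 90.4% and 93.3% of control. Dhcr7, which reduces the last intermediate of one branch to cholesterol, went the other way. Its controls were at 8.07, 9.85 and 8.48 CPM and its knockouts at 14.9, 12.3 and 10.6 CPM, a log2 fold change of 0.52 ± 0.15 (SE, adjusted p = 0.109). With the Y-linked signal as a covariate the log2 fold changes of Msmo1, Lss and Dhcr7 were -0.20, -0.32 and 0.58. Between the samples without that signal, where control 3 is the only control, they were -0.25, -0.30 and 0.57. Nsdhl, the X-linked sterol dehydrogenase, was at 20.1 and 19.3 CPM in the controls with Y-linked signal, 10.2 CPM in control 3, and 12.5 to 13.4 CPM in knockouts. Its knockouts therefore lay between the controls, below those with Y-linked signal and above the one without. Squalene synthase (Fdft1), squalene epoxidase (Sqle), Cyp51, Tm7sf2 and Hsd17b7 overlapped, at 89.4% to 105% of control.

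Among the 4 genes of SREBP control, Insig1, itself a known SREBP target, was at 18.499, 22.2 and 18.7 CPM in LDH controls and 14.6, 13.5 and 16.8 CPM in knockouts. All knockouts were below all controls at 75.6% of the mean, with a log2 fold change of -0.40 ± 0.12 (SE, adjusted p = 0.117 by edgeR). It was -0.25 with the Y-linked signal as a covariate and -0.32 between the samples without that signal, where control 3 is the only control. Srebf2 was at 67.6, 67.9 and 66.8 CPM in controls and 78.1, 79.7 and 71.4 CPM in knockouts. The controls were close together and all knockouts lay above them, at a log2 fold change of 0.18 ± 0.07 (SE, adjusted p = 0.215). Scap had the same mean in both groups (152 ± 8.95 in knockouts against 152 ± 10.4 CPM in controls, SD, n = 3 each), and Insig2 overlapped at 93.8%.

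Npc1, the membrane protein that passes cholesterol out of lysosomes, had the lowest p of the 31 genes in LDH knockouts. Controls were at 451, 460 and 432 CPM and knockouts at 353, 373 and 344 CPM. The groups were far apart for their spread, at 79.7% of control and a log2 fold change of -0.33 ± 0.08 (SE), yet the adjusted p was 0.0613 by edgeR. limma on log2(FPKM + 0.1), which called 1.94% of all genes, placed it past the threshold. Without single samples the log2 fold change stayed between -0.36 and -0.30. It was -0.25 with the Y-linked signal as a covariate and -0.27 between the samples without that signal, where control 3 is the only control. Npc2, its soluble partner, overlapped at 107% of control. Mylip, a ubiquitin ligase that removes lipoprotein receptors, was at 8.67, 8.83 and 8.74 CPM in controls and 10.96, 14.0 and 8.88 CPM in knockouts. Knockout 3 was almost level with the controls and knockout 2 the highest. The log2 fold change of 0.37 ± 0.17 (SE) did not pass (adjusted p = 0.261 by edgeR) and was 0.19 without knockout 2 and 0.51 without knockout 3. Stard4, a cytosolic sterol carrier, and Soat1, which esterifies cholesterol for storage, overlapped at 108% and 93.1% of control.

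The 5 genes of LXR and export all had log2 fold changes above 0 in LDH knockouts, with a median of 0.45, and none passed. Of all genes tested 51.0% were above 0. In a separate list of LXR partners and targets directions were mixed: of 7 tested, 2 were above 0 and 5 below, with a median of -0.10. The 5 include the partners Rxra and Rxrb, at -0.08 and -0.16. Apoc1, of the same list, was too low to be tested, at 0.254 to 0.745 CPM in knockouts and at most 0.0351 CPM in controls. Abcg1, an exporter to lipoprotein particles, was at 3.65, 3.39 and 1.88 CPM in controls and 5.30, 8.35 and 4.20 CPM in knockouts. All knockouts were above all controls, at 200% of the mean and a log2 fold change of 0.996 ± 0.303 (SE, adjusted p = 0.113 by edgeR). Nr1h3 was at 4.70, 3.74 and 4.73 CPM in controls and 8.38, 9.05 and 5.19 CPM in knockouts. Knockouts 1 and 2 were well above the controls and knockout 3 just above them, at a log2 fold change of 0.78 ± 0.22 (SE, adjusted p = 0.0946). Apoe, the lipoprotein component, was at 15.3, 18.47 and 21.4 CPM in controls and 22.0, 31.8 and 21.7 CPM in knockouts, where knockout 2 stood out. Its log2 fold change was 0.45 ± 0.17 (SE, adjusted p = 0.183). Abca1 was at 17.5, 14.4 and 9.53 CPM in controls and 14.4, 15.1 and 17.7 CPM in knockouts, which overlapped. Nr1h2 overlapped at 105% of control.

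Knockout 2 was highest for Abcg1, Nr1h3 and Apoe. In that sample 12 macrophage markers, among which Lyz2 was the most abundant, summed to 197 CPM, against 109 and 129 CPM in the other knockouts and 101 to 156 CPM in controls, and none of the 12 passed. Adipocyte markers, led by Lpl, summed to 121 CPM there, 75.5 and 88.9 CPM in the other knockouts and 38.7 to 52.9 CPM in controls. Of 8 tested, 6 were called higher at an adjusted p under 0.05 by edgeR, where 2.49% of all genes were called in either direction. Summed chondrocyte markers were 18939 to 28636 CPM in knockouts and 10386 to 12027 CPM in controls, with 7 of 11 tested called higher. Osteoblast markers, led by Spp1, were 2459 to 4583 against 6282 to 8703 CPM, with 3 of 6 tested called lower. Groups did not overlap for 7 of 10 adipocyte and 11 of 12 chondrocyte markers, all higher, against 11.9% of all genes. They did not overlap for 4 of 8 osteoblast markers, all lower, against 12.5%. No marker of these lists was at 0 in every sample. In bulk RNA, fewer cells of a type and less RNA per cell cannot be told apart, and the part of these lists in the values of the cholesterol genes was not tested. Between the samples without Y-linked signal the log2 fold change was 1.66 for Abcg1, 0.72 for Abca1, 0.67 for Nr1h3 and 0.23 for Apoe. These values rest on control 3 as the only control. It was the lowest control for Abcg1 and Abca1 and the highest for Nr1h3 and Apoe. Without knockout 2 the log2 fold change of Abcg1 was 0.68 and that of Apoe 0.26.

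**Figure D2:**
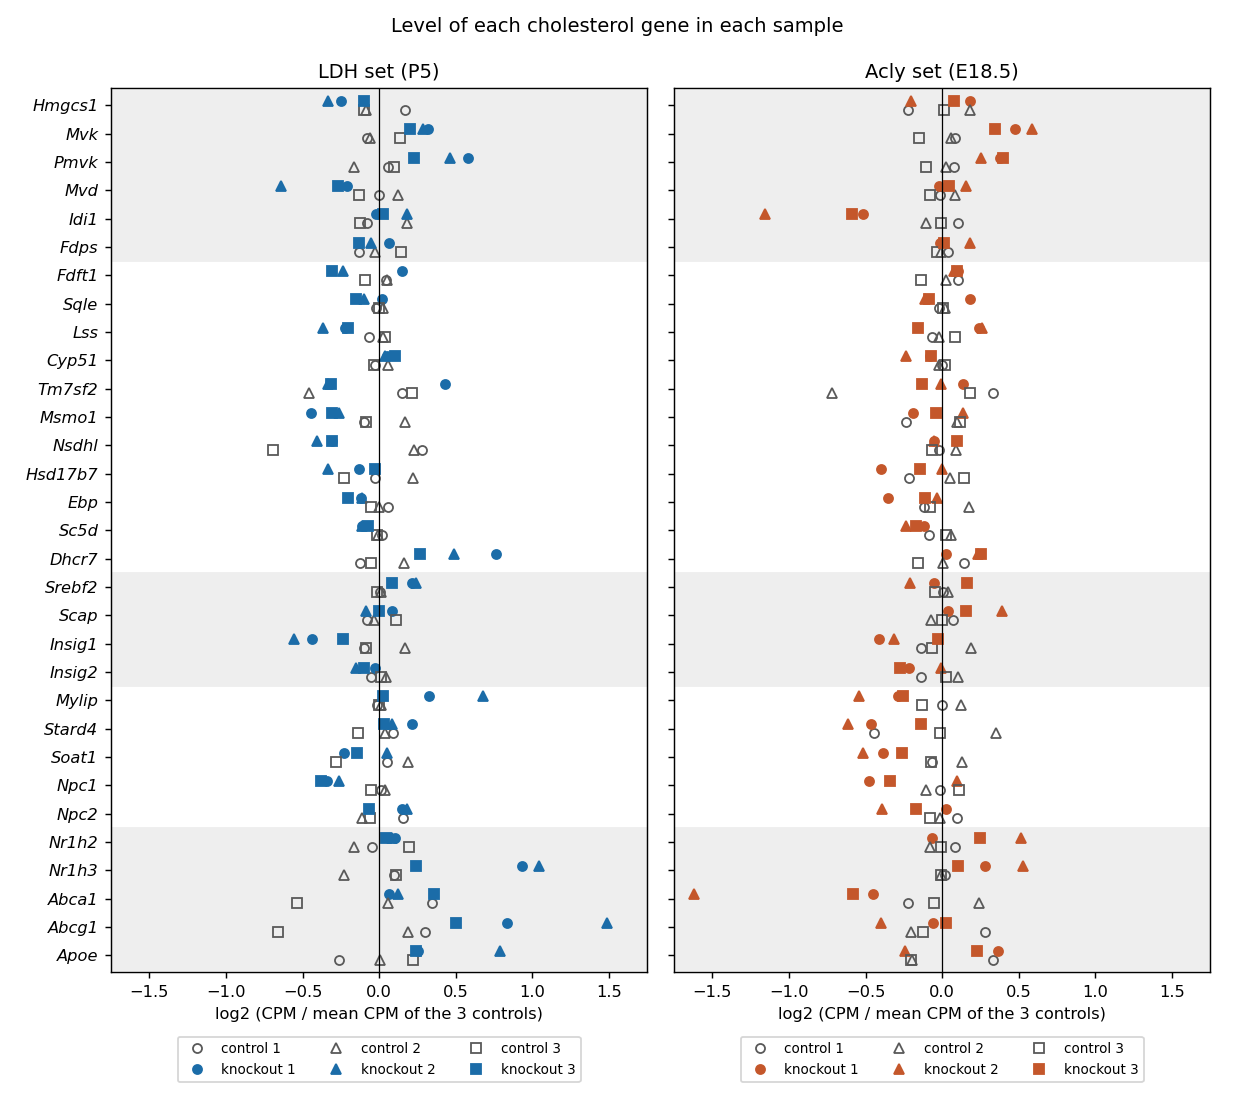
Each gene in each sample as log2 of its CPM over the mean CPM of the 3 controls of its set. Filled symbols are knockouts and open symbols controls, shaped by replicate number; in the LDH panel all knockouts lie right of the controls for Abcg1, Nr1h3, Apoe and Dhcr7 and left of them for Npc1 and Msmo1, and in the Acly panel knockout 2 lies far left for Abca1 and Idi1.

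The Acly comparison concerns cells with less Acly RNA, and acetyl-CoA in the cytoplasm was not measured here. None of the 31 genes passed the test in Acly knockouts against controls, where 19 of 13973 genes (0.136%) did, and DESeq2 called none of the 31 and 1.78% of all genes. At an unadjusted p under 0.05 edgeR had 6 of the 31 (19.4%) against 15.8% of all genes. Mvk and Pmvk were the 2 higher ones, and Soat1, Idi1, Abca1 and Mylip the 4 lower ones. Groups did not overlap for 3 genes that were higher (9.68%, against 10.7% of all genes) and 6 that were lower (19.4%, against 11.3%). The median log2 fold change was -0.03, against -0.0018 over all genes tested, with a range of -0.80 to 0.47.

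Among the mevalonate genes, Mvk was at 13.7, 13.4 and 11.6 CPM in Acly controls 1 to 3 and 17.9, 19.3 and 16.4 CPM in knockouts 1 to 3. Pmvk was at 6.44, 6.23 and 5.69 CPM in controls and 7.95, 7.30 and 8.06 CPM in knockouts. Both kinases were thus above all controls in every knockout, at log2 fold changes of 0.47 ± 0.13 and 0.34 ± 0.14 (SE), which did not pass (adjusted p = 0.222 and 0.304 by edgeR). Idi1, which isomerises isopentenyl diphosphate, was at 6.52, 5.64 and 6.03 CPM in controls and 4.23, 2.72 and 4.03 CPM in knockouts. All knockouts were below all controls at 60.4% of the mean, with a log2 fold change of -0.72 ± 0.21 (SE, adjusted p = 0.232). Knockout 2 was the lowest, and without it the log2 fold change was -0.55. Hmgcs1, Mvd and Fdps overlapped at 102% to 104% of control.

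The 11 sterol-step genes varied little in the Acly set, with log2 fold changes from -0.18 to 0.17 and none at an unadjusted p under 0.05. Sc5d and Cyp51 alone had separate groups, with all knockouts below all controls. Sc5d was at 34.0, 37.7 and 36.9 CPM in controls and 33.3, 30.7 and 32.2 CPM in knockouts. Cyp51, which removes the first methyl group from lanosterol, was at 38.2, 37.6 and 38.7 CPM in controls and 36.1, 32.4 and 36.3 CPM in knockouts. These are small shifts, at 88.6% and 91.5% of control. Msmo1 and Dhcr7 overlapped at 98.1% and 113% of control, and so did Lss at 109%.

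Srebf2 was at 98.1%, Scap at 115%, Insig1 at 84.5% and Insig2 at 89.2% of control in Acly knockouts, and the samples of all 4 overlapped between groups. Insig1 ranged from 13.2 to 17.3 CPM in knockouts and 16.1 to 20.05 CPM in controls. Scap was highest in knockout 2, at 199 CPM against 145 to 169 CPM in the other 5 samples.

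All 5 genes of uptake and movement had log2 fold changes below 0 in Acly knockouts, with a median of -0.36, and none passed. Soat1 was at 120, 137 and 119 CPM in controls and 95.6, 87.4 and 104 CPM in knockouts, all knockouts below all controls. It was 76.5% of control, with a log2 fold change of -0.39 ± 0.10 (SE, adjusted p = 0.219 by edgeR). Mylip was at 29.1, 31.7 and 26.6 CPM in controls and 23.8, 19.96 and 24.4 CPM in knockouts. These groups were separate too, at 78.1% of control and a log2 fold change of -0.36 ± 0.12 (SE, adjusted p = 0.259). Stard4 and Npc1 overlapped at 76.2% and 85.9% of control. For Npc1 knockout 2 was at 408 CPM, within the controls' 356 to 412 CPM, and the other knockouts were at 274 and 302 CPM, below them. Without knockout 2 its log2 fold change was -0.40 in place of -0.22. Npc2 overlapped at 89.0% of control.

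Abca1, the exporter that loads cholesterol onto apolipoproteins, had the lowest log2 fold change of the group in Acly knockouts. Controls were at 34.3, 47.2 and 38.6 CPM and knockouts at 29.3, 13.02 and 26.7 CPM. All knockouts were below all controls, at 57.5% of the mean and a log2 fold change of -0.80 ± 0.26 (SE, adjusted p = 0.259 by edgeR). Knockout 2 was the lowest, and without it the log2 fold change was -0.51 (adjusted p = 0.107). It was -0.32 between the samples without Y-linked signal with knockout 1 as the only knockout, and -1.25 between those with it, with control 2 as the only control. Summed fibroblast and perichondrium markers, led by Col1a1, were at 1792 CPM in knockout 2, 4134 and 4168 CPM in the other knockouts and 4503 to 5288 CPM in controls, and none of the 10 passed. Summed macrophage markers, led by Cd68, were 226 to 258 CPM in knockouts and 203 to 231 CPM in controls, and adipocyte markers 224 to 463 and 261 to 287 CPM. The part of these lists in the level of Abca1 was not tested. Nr1h3 was at 6.63, 6.52 and 6.51 CPM in controls and 7.95, 9.43 and 7.05 CPM in knockouts. Its controls nearly coincided and all knockouts lay above them, at a log2 fold change of 0.31 ± 0.16 (SE, adjusted p = 0.357 by edgeR). Knockout 2 was the highest, and without it the value was 0.20. Nr1h2, Abcg1 and Apoe overlapped at 119%, 91.2% and 110% of control.

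**Figure D3:**
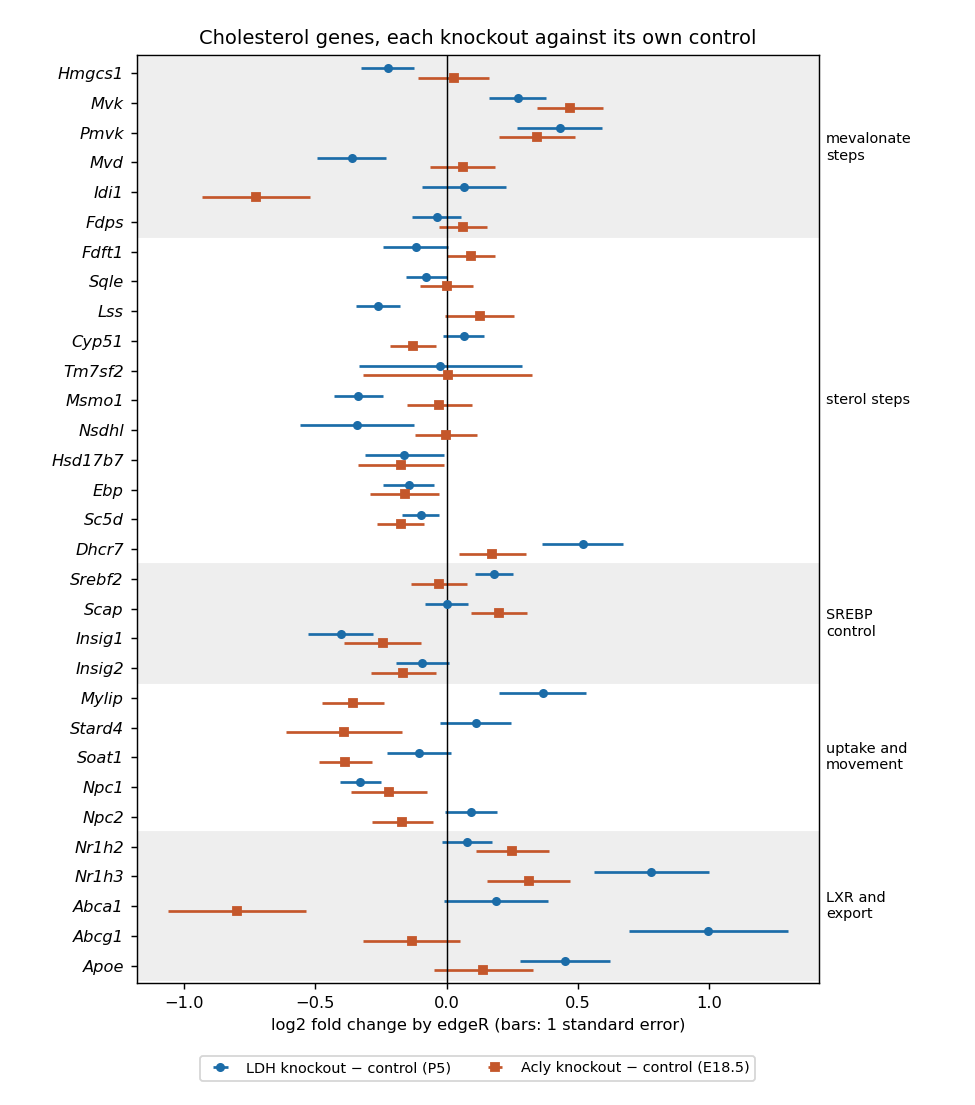
Log2 fold change of the 31 genes in LDH knockouts (blue circles) and Acly knockouts (orange squares), each against its own control, with 1 SE by edgeR. No gene passed in either comparison; Abcg1 at 0.996 in the LDH set and Abca1 at -0.80 in the Acly set are the values farthest from 0.

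The 2 comparisons use separate samples, so their values can be set side by side. Of the 31 genes 16 had the same sign in both, 7 up and 9 down, which is 51.6% against 57.4% of the 13140 genes tested in both. Groups were separate in both sets for 5 genes (16.1%, against 5.62% of the genes tested in both), for 4 of them in the same direction (12.9%, against 4.29%). Mvk, Pmvk and Nr1h3 were higher and Sc5d lower in both knockouts, and Mylip was higher in LDH and lower in Acly knockouts. Mvk and Pmvk were the 2 genes with an unadjusted p under 0.05 in both (6.45%, against 4.09%).

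The difference between the knockout effects, tested over all 12 samples, passed for none of the 31 genes and for 23 of 14251 genes (0.161%). An unadjusted p under 0.05 was reached by 6 of the 31 (19.4%) against 13.0% of all genes. The LDH effect was the higher one for Mylip by 0.74 ± 0.21, Idi1 by 0.80 ± 0.26, Abcg1 by 1.14 ± 0.39 and Abca1 by 0.99 ± 0.38 on the log2 scale (SE). It was the lower one for Lss, by a difference of -0.37 ± 0.15, and for Mvd, by -0.41 ± 0.18. Their adjusted p ran from 0.203 for Mylip to 0.353 for Mvd by edgeR. The deleted gene and the age coincide in this comparison and cannot be told apart.

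**Figure D4:**
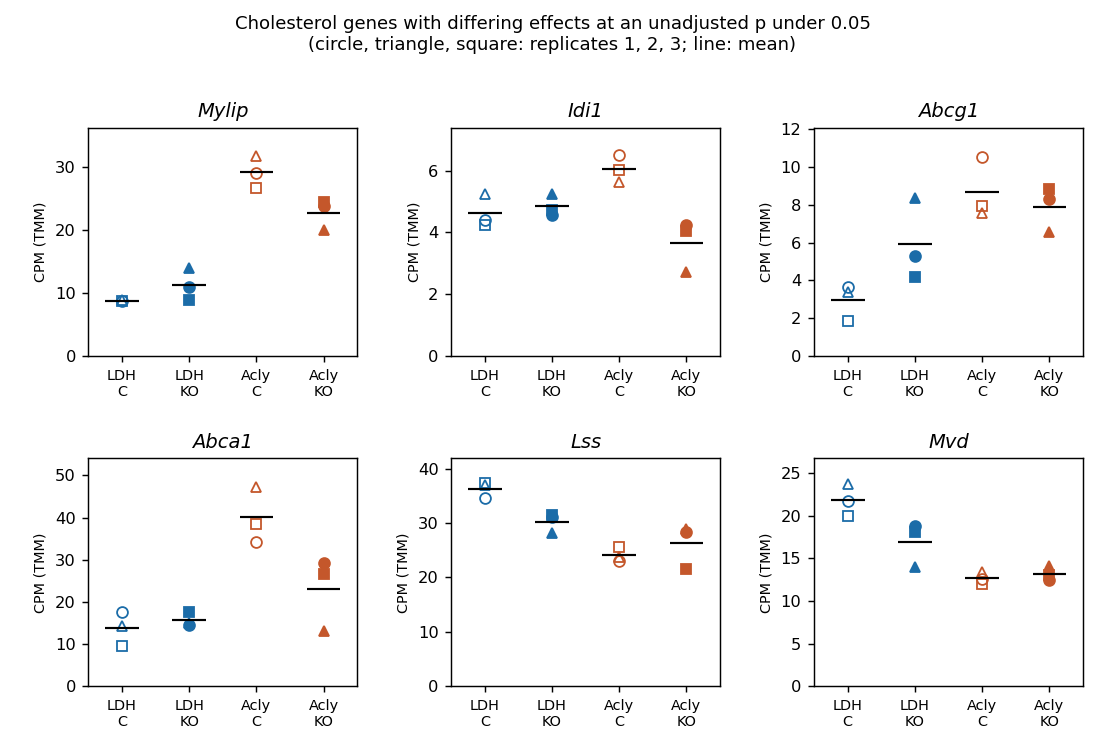
CPM in each sample (linear axes from 0) of the 6 genes whose LDH and Acly effects differed at an unadjusted p under 0.05; C is control and KO knockout, and lines are means of 3. CPM were scaled within each set, so a level in one set compares with the other only roughly; for Mylip all LDH knockouts lie above their controls and all Acly knockouts below theirs.

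The control groups differed far more from each other than either did from its knockouts. With all 12 samples scaled together, 16 of the 31 genes (51.6%) passed between LDH controls at P5 and Acly controls at E18.5, against 55.0% of all genes, so the share of the cholesterol genes is close to the background. Of them 8 were higher and 8 lower in LDH controls. Mvd (23.1 ± 2.09 against 12.04 ± 0.677 CPM, SD, n = 3 each), Msmo1 (99.8 ± 10.96 against 54.8 ± 7.02 CPM) and Lss (38.4 ± 1.40 against 22.9 ± 1.21 CPM) were the most shifted of the higher ones, at log2 differences of 0.94, 0.87 and 0.75. Sc5d followed at 0.43, Npc1 and Fdps at 0.38, and Mvk and Hmgcs1 at 0.34. Mylip was lowest in LDH controls relative to Acly controls, at 9.25 ± 0.0874 against 27.7 ± 2.40 CPM and a log2 difference of -1.58. The exporters Abcg1 and Abca1 were at -1.39 and -1.38, Apoe at -1.15, Npc2 at -0.88, Dhcr7 at -0.74, Srebf2 at -0.40 and Fdft1 at -0.35. Their adjusted p by edgeR ran from 2.83e-06 for Mylip to 0.0385 for Hmgcs1. Leaving out 1 sample ended the call of Hmgcs1 (LDH control 1, Acly control 1 or 3), Mvk (LDH or Acly control 3), Fdft1 (LDH control 3 or Acly control 1) and Npc1 (Acly control 2), at adjusted p of 0.0541 to 0.161.

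The split depends on scaling. Without TMM scaling the median log2 difference of all genes moved from -0.02 to -0.19, the share of higher calls over all genes went from 46.7% to 27.6%, and 4 cholesterol genes were called higher and 12 lower. Mvd, Msmo1, Lss and Sc5d were the 4 higher ones, and Hmgcs1, Mvk, Fdps and Npc1 lost their calls. Age, mouse line and any library batch coincide between these groups and cannot be told apart.

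Other genes of the pathway were read from 5 lists of 55 genes: isoprenoid branches, acetyl-CoA to HMG-CoA with SREBP processing, cholesterol movement and esters, LXR partners and targets, and oxysterol synthesis. None of the 54 tested passed in LDH knockouts and none of 55 in Acly knockouts. At an unadjusted p under 0.05 there were 5 higher and 4 lower in the LDH set (16.7%, against the 19.6% of all genes) and 5 higher and 5 lower in the Acly set (18.2%, against 15.8%), shares near the background. In the LDH set groups did not overlap for 5 of 54 that were higher (all genes: 11.9%) and 12 that were lower (all genes: 12.5%). In the Acly set they did not overlap for 6 of 55 that were higher (all genes: 10.7%) and 8 that were lower (all genes: 11.3%). The 3 with the lowest p in the LDH set were lower in every knockout than in every control. The oxysterol-binding protein Osbp was at 104, 120 and 98.5 CPM in controls and 78.7, 70.5 and 91.7 CPM in knockouts, a log2 fold change of -0.42 (adjusted p = 0.0804 by edgeR). Its relative Osbpl2 had a log2 fold change of -0.28 and Dhdds, which lengthens isoprenoids towards dolichol, one of -0.27, with adjusted p of 0.098 and 0.114. In the Acly set the 3 with the lowest p were higher in every knockout. Cyp27a1, an oxysterol-forming hydroxylase, was at 2.35, 2.93 and 2.73 CPM in controls and 4.20, 4.81 and 4.07 CPM in knockouts, a log2 fold change of 0.71 (adjusted p = 0.222 by edgeR). Scarb1, a lipoprotein receptor, was at 0.43 and the sterol carrier Osbpl5 at 0.28 on the same scale, with adjusted p of 0.242 and 0.239.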

How the data were processed

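RNA of 12 samples in 4 groups was measured. Per the submitters' processing notes, HISAT2 2.0.4 and the build mm9 were used; the counting program, annotation and use of strand are not given in the sources used here, so genes that share or overlap reads are uncertain. The authors deposited expected counts (7.32% to 8.16% of values per sample are not whole), FPKM and TPM per gene. A further 12 columns, named as group averages, were not used here. The expected counts deposited by the authors were rounded and tested with edgeR 4.0.16 (R 4.3.3) using TMM, filterByExpr, two-sided quasi-likelihood F tests and Benjamini-Hochberg adjustment over all genes, with a threshold of 0.05. The standard error is the log2 fold change divided by the square root of F. The authors' FPKM values went into limma 3.58.1 as an alternative, with pseudocounts of 0.1 and 1 and a minimum of 0.1, and the authors' TPM values served for levels between genes. DESeq2 1.42.0 was another alternative. The model fits were run on simulated counts with a fixed spread and with changes larger than the knockout effects of the 31 genes in the main fits. That simulation cannot show how well effects of the size seen here are found. The promoter search and the exact permutation test were not simulated.

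Knockouts were compared with their own controls in fits of 6 samples, and both sets in a fit of 12. Further settings tried were total counts without scaling, median-of-ratios scaling, no filter on low counts, each sample left out, the replicate number as a block, the Y-linked signal as a covariate, and, chosen after seeing the data, only samples under or over 10 CPM of Y-linked signal. The members and lists were chosen with earlier results of these data known. Named are the 31 members, the targeted genes, the most abundant gene of each marker list described, and the 3 related genes with the lowest p in each comparison. Promoter sequences are RefSeq's on GRCm38.p6, not the build of the reads. No molecular identifiers are named, so the 3-count limit covers counting error only. No pair of libraries agreed within sampling noise. Of the marker lists, muscle, endothelial and red blood cell genes are given in the closing section.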

Additional observations from a re-analysis of the deposited data

Results flagged for a closer look

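Mylip had effects of opposite direction in the 2 sets: every LDH knockout was above every LDH control and every Acly knockout below every Acly control. The test of the difference over all 12 samples gave 0.74 on the log2 scale (adjusted p = 0.203 by edgeR). Leaving out single samples moved the difference between 0.56 and 0.88, and it passed only without LDH knockout 3 (0.88, adjusted p = 0.0479). Over its 19 alternatives the adjusted p ran from 0.0479 to 0.454. LDH knockout 3, at 8.88 CPM, was almost level with the highest LDH control, at 8.83 CPM.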

How the results depend on the processing

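A log2 fold change smaller than its standard error was taken to have no direction, and 57 sign changes of such values are not counted as reversals. In the LDH comparison the number of members past the threshold went from 0 to 5 with DESeq2 and to 1 with limma on log2(FPKM + 0.1) or log2(FPKM + 1) (Npc1), and lay between 0 and 4 with single samples left out. Over all genes the 332 calls became 888 with DESeq2, 3 with the Y-linked covariate, 15 in samples without Y-linked signal, and 95 to 1068 with single samples left out, the highest without LDH knockout 3. Every other removal of 1 LDH sample, controls included, left at most 154. In the Acly comparison every alternative left 0 members called, while the 19 calls over all genes became 11 without scaling, 32 without the filter, 249 with DESeq2, 6 with the Y-linked covariate, 31 in the fit of 12 samples, 70 in samples without and 0 in samples with Y-linked signal, and 0 to 132 with single samples left out, the highest without Acly knockout 2. For the difference of effects the 23 calls became 217 with DESeq2 and 5 to 143 without single samples, and 0 to 1 members passed. Between controls 14 to 16 members and 6705 to 7127 genes passed without single samples. The cause of these changes was not tested.

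Directions turned for Nsdhl (0.70) and Hsd17b7 (0.21) in the LDH set with the Y-linked covariate, for the same genes in samples without Y-linked signal (0.354 and 0.0711), and in the Acly set for Npc2 (0.0183) and Nr1h2 (-0.10) in samples without Y-linked signal. The covariate is log2 of that signal plus 0.1 CPM. On this scale even LDH control 3 (0.590 CPM) lies above the LDH knockouts (at most 0.0367 CPM). The LDH fit with the covariate can therefore hardly separate it from genotype. The Acly samples without that signal hold 1 knockout and those with it 1 control, each assumed to vary like the samples of the other group, so these values rest on a single sample. The fall of Acly in its knockouts kept its size but missed the threshold without scaling (-1.45, adjusted p = 0.0563), with the Y-linked covariate (-1.40, 0.0626) and in samples with Y-linked signal (-1.46, 0.626). Without single samples it ran from -1.54 to -1.21, and the call was lost in 5 of 6 such fits, without knockout 1 (adjusted p = 0.0603), knockout 3 (0.0736), control 1 (0.109), control 2 (0.145) or control 3 (0.233). The members' median log2 fold change was 0.06 and 0.07 in the LDH set with the covariate and in samples without Y-linked signal, and -0.04 to 0.01 without single samples. In the Acly set it was -0.07 without scaling, -0.08 on FPKM and -0.09 in samples without Y-linked signal, where the median of all genes was -0.05, -0.05 to -0.04 and -0.01, and -0.07 to 2.44e-05 without single samples.

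Samples that share a replicate number did not deviate together (r of 0.049, -0.159 and 0.006 in the LDH set, and 0.002, -0.214 and -0.222 in the Acly set), and 1 of the 6 correlated best with its own number. The numbers were therefore not used as pairs in the main fits. With 3 samples per group these correlations cannot exclude a pairing, and the labels do not state one. With the replicate number as a block, 1 member passed in LDH knockouts (Abcg1, adjusted p = 0.0481) and 362 genes; in Acly knockouts 0 members and 8 genes passed, and for the difference of effects 0 members and 5 genes.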

Other observations

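The remaining marker lists gave the following sums of CPM. In the LDH set muscle genes, led by Des, summed to 19.997 to 39.0 in knockouts and 21.6 to 39.3 in controls, endothelial genes, led by Cdh5, to 13.9 to 19.9 and 12.9 to 17.5, red blood cell genes, led by Hba-a1, to 12.1 to 35.4 and 27.5 to 42.4, and fibroblast and perichondrium genes, led by Dcn, to 839 to 960 and 851 to 1321. One fibroblast gene was called lower and none of the other lists held a called gene. In the Acly set chondrocyte genes, led by Col2a1 as in the LDH set, summed to 15355 to 17799 in knockouts and 9244 to 10172 in controls, with 2 called higher. Osteoblast genes, led by Spp1, summed to 4740 to 6968 and 6750 to 9918, muscle genes, led by Acta1, to 165 to 368 and 327 to 439, endothelial genes, led by Cdh5, to 120 to 140 and 107 to 126, and red blood cell genes, led by Hba-a1, to 60.3 to 142 and 95.9 to 138, with none called.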
